A study of Mus musculus with 8 samples.

Results

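Heat shock proteins and cytosolic chaperones were examined in bulk RNA from sorted cells of mouse small intestine organoids, which are epithelial cultures grown in a basement membrane gel. The members were chosen by symbol, as the genes of the deposited read count table named Hspa, Hspb, Hspd1, Hspe1, Hsph1, Hsp90, Dnaja, Dnajb, Dnajc, Cct or Bag with a number, without the endoplasmic reticulum proteins Hspa5 and Hsp90b1. This gave 70 of the 13420 genes in the table, and 38 of the 70 had enough reads to be tested. The wild-type (WT) cells were mTmG on C57BL/6, which carries a membrane tdTomato, and the cancer cells, on C57BL/6 (F6), carried Villin-CreERT2 with altered alleles that include Apc fl/fl and were marked with Dendra2. In the cancer line, a tamoxifen-dependent Cre driven by the epithelial Villin promoter acts on these alleles, among them Apc and the p53 gene. There were 2 libraries in each of 4 groups, named here by their wells: pure WT (A01 and A05), mixed WT (A02 and A06), pure cancer (A03 and A07) and mixed cancer (A04 and A08). Mixed cultures were started at a ratio of 2 WT to 1 cancer, and live cells were sorted by color on day 3 after mixing, so that the mixed WT and mixed cancer cells came from mixed organoids and the pure cells from organoids of a single kind. The labels do not say whether the 2 libraries of a group came from separate cultures, so p-values measure the spread between these libraries, which may be technical.

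Molecular chaperones bind unfolded or newly made proteins and let them fold. HSP70 proteins bind and release their clients in a cycle of ATP hydrolysis, J-domain proteins of the DNAJ family bring clients to HSP70 and start hydrolysis, and BAG proteins release the nucleotide again. HSP90 takes over clients such as kinases and steroid receptors, the small heat shock proteins hold unfolded proteins without ATP, and the ring-shaped chaperonin TRiC, built from CCT subunits, folds actin and tubulin. In stressed cells the transcription factor HSF1 binds heat shock elements, repeats of GAA in alternating orientation, and raises the inducible genes, whereas constitutive members such as Hspa8 and Hsp90ab1 are expressed without stress.

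Depth differed between the libraries, with 73109 reads in A02, 4733121 reads in A04 and between 201137 and 1905693 in the others. The 70 members held between 0.654% of the reads (A02) and 0.889% (A05), and 3 genes, Hspa8, Hsp90ab1 and Hspe1, made up 43.7% to 61.2% of these. Of the 38 tested members, 7 had no read in A02, 3 in A03 and 2 in A08, and none was without reads in the other libraries. Levels are given as CPM, the reads of a gene scaled to a common library size, and since CEL-Seq reads come from the 3′ ends of transcripts no division by length was made. In a single library a count of 0 allows up to 3 reads, which is 41.0 CPM in A02, 14.3 in A03 and 14.9 in A08, and intervals and limits cover counting error only, as the reads include amplification copies. The 8 epithelial markers had a summed level of 4755.1 to 16157.8 CPM per library, and all had reads except Krt20 in A07 and A08. Only 2 of 12 immune and stromal markers were in the table at all, with 0 to 7.31 CPM. The read counts could not check the altered alleles, as they do not resolve exons. Apc had 0 to 22 reads per library and Trp53 was at 13.1 to 323.7 CPM in WT and 5.25 to 71.8 CPM in cancer libraries.

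The promoters of 5 members are shown because these are the genes around which the comparison of cancer and WT cells turns, or because they hold the letters of a heat shock element. Each line gives the 250 bases before the transcription start from RefSeq (GRCm38.p6), read 5′ to 3′ on the gene's strand, with matches to GAANNTTC or TTCNNGAA in capitals.
Hspa1b (chr17:34959239-34959488, minus strand): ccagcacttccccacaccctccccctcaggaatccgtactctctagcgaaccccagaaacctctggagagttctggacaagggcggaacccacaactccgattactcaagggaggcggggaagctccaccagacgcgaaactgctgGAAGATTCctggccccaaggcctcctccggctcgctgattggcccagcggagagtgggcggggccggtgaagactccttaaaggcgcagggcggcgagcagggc
Hspa1a (chr17:34972157-34972406, minus strand): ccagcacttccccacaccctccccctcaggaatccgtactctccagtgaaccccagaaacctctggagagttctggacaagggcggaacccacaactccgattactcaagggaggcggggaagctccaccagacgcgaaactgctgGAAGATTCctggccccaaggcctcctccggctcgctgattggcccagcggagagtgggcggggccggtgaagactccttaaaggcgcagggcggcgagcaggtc
Hspe1 (chr1:55087898-55088147, plus strand): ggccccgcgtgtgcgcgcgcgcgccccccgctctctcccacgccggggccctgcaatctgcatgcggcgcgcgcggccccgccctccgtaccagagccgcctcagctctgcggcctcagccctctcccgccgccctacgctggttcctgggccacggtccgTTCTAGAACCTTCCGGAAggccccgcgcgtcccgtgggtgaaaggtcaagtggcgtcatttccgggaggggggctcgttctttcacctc
Dnajb6 (chr5:29735648-29735897, plus strand): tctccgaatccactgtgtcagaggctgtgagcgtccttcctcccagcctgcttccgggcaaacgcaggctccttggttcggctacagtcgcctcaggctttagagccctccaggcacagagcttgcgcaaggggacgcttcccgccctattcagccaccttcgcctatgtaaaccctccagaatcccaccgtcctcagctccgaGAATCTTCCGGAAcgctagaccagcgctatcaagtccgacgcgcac
Dnaja2 (chr8:85555362-85555611, minus strand): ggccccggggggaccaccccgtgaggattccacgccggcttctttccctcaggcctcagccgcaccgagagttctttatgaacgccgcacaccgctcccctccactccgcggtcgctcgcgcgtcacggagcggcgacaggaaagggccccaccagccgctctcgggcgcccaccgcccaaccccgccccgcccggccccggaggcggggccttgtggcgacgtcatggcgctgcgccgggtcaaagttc
GAANNTTC was present in 6.69% of 32851 such promoters and TTCNNGAA in 7.17%. Both motifs read the same on the opposite strand, and they overlap where GAANNTTC is followed by NNGAA, a longer motif that was searched on both strands and was present in 0.466%. Among the members, 73 promoters of 55 genes were in the set, and 12 of them held GAANNTTC, 9 held TTCNNGAA and 4 held the longer motif. The 4 promoters with the longer motif belonged to Dnajb6, Hspd1 and Hspe1. Hspd1 and Hspe1 lie head to head on chromosome 1, so the match printed for Hspe1 is also that of Hspd1 on the opposite strand. Hspa1a and Hspa1b, neighbours on chromosome 17, were equal in 247 of the 250 bases and each held 1 match that began 104 bases before the start. Neither the promoters of Dnajb1 nor that of Dnaja2 held one of these motifs within this window. A match is a run of letters and not a measured binding site.

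The question of how cancer cells differed from WT cells in chaperone RNA was asked in the pure cultures, in the mixed cultures and over both. Of the 38 tested members, 1 was called higher in pure cancer than in pure WT cells, Hspa1b, beside 5.11% of all 5264 tested genes in this direction, and 0 were called lower, beside 4.84% of all. In mixed cancer against mixed WT cells 0 members were called, beside 6.42% of all tested genes. At an unadjusted p under 0.05, 3 members were higher in this comparison, beside 7.94% of all, and 1 was lower, beside 8.47%, and DESeq2 also called 0. Over both, 2 members were called higher in cancer cells, Hspa1b and Dnaja2, beside 6.80% of all tested genes, and 0 were called lower, beside 7.37% of all. With 2 calls among 38 members, the 5.26% called higher lay near the share of all tested genes and is not read as a difference. The median log2 fold change over the 38 members was 0.16 in cancer against WT cells over both, against 0.04 over all tested genes.

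Hspa1b encodes a stress-inducible cytosolic HSP70 (ENSMUSG00000090877.3, chr17:34956436-34959238, minus strand, GRCm38). Its level was 11.0 CPM in A01 and 8.99 in A05 for pure WT cells, and 0 in A02 and 31.7 in A06 for mixed WT cells. In pure cancer cells it was 52.5 CPM in A03 and 113.7 in A07, and in mixed cancer cells 65.7 in A04 and 62.2 in A08. All 4 cancer libraries lay above all 4 WT libraries, and mixed WT library A06 lay closest to them. The mean was 9.99 ± 1.41 CPM (SD, n = 2) in pure WT cells and 83.1 ± 43.3 CPM (SD, n = 2) in pure cancer cells. The log2 fold change of pure cancer over pure WT cells was 3.08 with a standard error of 0.770 (adjusted p = 0.0100, edgeR). Over pure and mixed cultures it was 2.28 with a standard error of 0.559 (adjusted p = 0.00553, edgeR), and between the mixed groups alone it was 1.47 with an adjusted p of 0.398 (edgeR). These levels rest on few reads, which numbered 12 and 16 for pure WT, 0 and 14 for mixed WT, 10 and 38 for pure cancer and 336 and 12 for mixed cancer cells. Over pure and mixed cultures the call held under all 15 alternatives that tested the gene. In the pure cultures it was lost without A01, A05 or A07, at adjusted p of 0.0812, 0.129 and 0.181 (edgeR), and without A06 the log2 fold change over both was 6.20, as the mixed WT arm then held only A02 with its 0 reads.

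Its neighbour Hspa1a, which encodes a nearly identical protein, had too few reads to be tested. Its reads numbered 4 and 2 for pure WT, 0 and 2 for mixed WT, 1 and 9 in pure cancer and 69 and 1 in mixed cancer cells. Pooled over libraries this was 8 reads or 2.22 CPM in WT and 80 reads or 14.6 CPM in cancer cells, a ratio of 6.57 (95% counting interval 3.18 to 15.7), and 69 of the 80 reads came from A04. The 3′ ends of both genes differ, and no window of 50 bases within the last 500 bases of either transcript recurred in another annotated gene.

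None of the other heat-inducible members was called. Dnajb1, the J-domain partner of inducible HSP70, was at 82.4 and 77.6 CPM in pure WT, 118.0 and 43.0 in mixed WT, 188.9 and 140.7 in pure cancer and 171.2 and 166.0 in mixed cancer cells. The 4 cancer libraries lay above the 4 WT libraries without overlap. The log2 fold change over both cultures was 1.17 with a standard error of 0.406, and its adjusted p of 0.0563 (edgeR) missed the threshold. It was called on the molecule barcode counts (1.06, adjusted p = 0.0146, edgeR), on the transcript counts (1.28, adjusted p = 0.00849, edgeR), without A02 (1.48, adjusted p = 0.0131, edgeR) and with the wells in plate order as a block (1.16, adjusted p = 0.0230, edgeR), and over all 16 alternatives its adjusted p ranged from 0.00849 to 0.234.

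Hsp90aa1, the stress-inducible cytosolic HSP90, was at 34.8 and 42.7 CPM in pure WT, 39.3 and 38.5 in mixed WT, 84.0 and 77.8 in pure cancer and 87.3 and 57.1 in mixed cancer cells. Its groups did not overlap either, with a log2 fold change of 1.00 and a standard error of 0.466, which did not pass the test (adjusted p = 0.182, edgeR). Of the windows in its last 500 bases, 24.7% recurred in other annotated genes. Hsph1, an HSP110 that exchanges nucleotide on HSP70, went the other way and ranged from 5.99 CPM in A07 to 91.8 in A02 with overlapping groups (log2 fold change −0.40, adjusted p = 0.763, edgeR). Bag3, which links HSP70 to autophagy, was at 0 to 17.4 CPM in WT and 0 to 46.7 CPM in cancer cells, with 0 reads in A02 and A03 (log2 fold change 0.99, adjusted p = 0.554, edgeR). Hspb1, a small heat shock protein, had 8 reads in all 8 libraries together, 4 in WT and 4 in cancer cells.

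**Figure D1:**
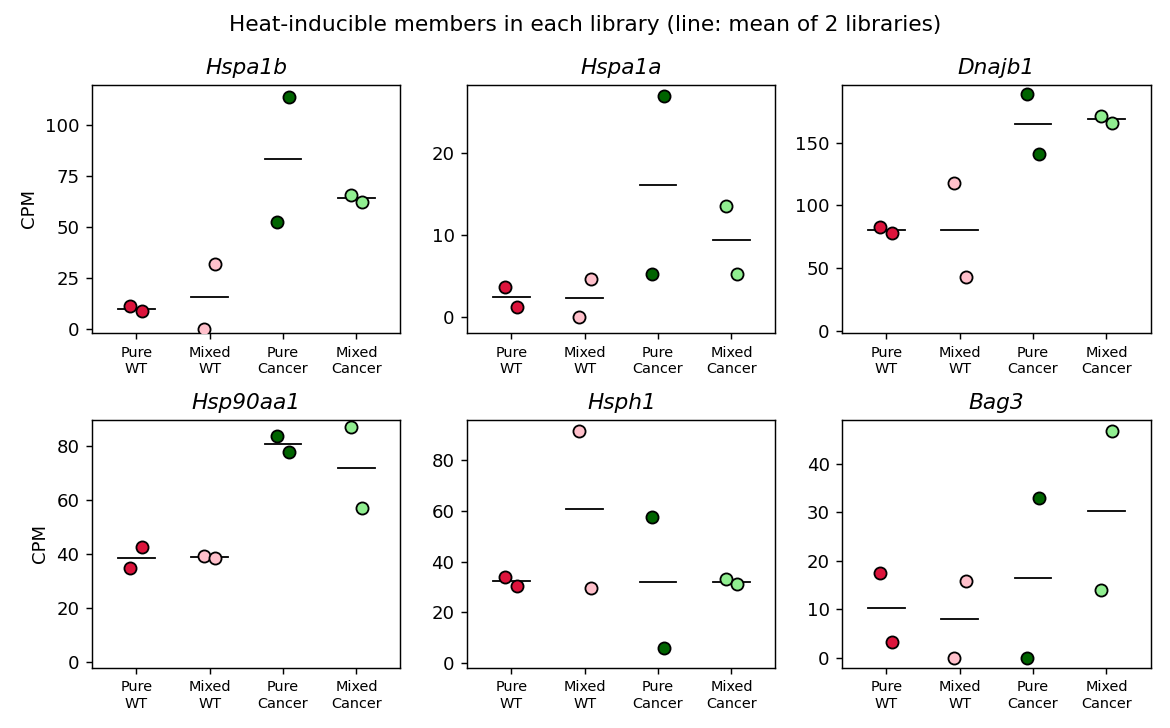
Level in CPM (vertical axis) of 6 heat-inducible members in each library, by group (horizontal axis), with a line at the mean of the 2 libraries. For Hspa1b, Dnajb1 and Hsp90aa1 all cancer libraries sit above all WT libraries, while Hsph1, Bag3 and Hspa1a overlap or rest on few reads.

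Summed over the 7 heat-inducible members, the level was 184.0 and 164.1 CPM in pure WT, 249.1 and 169.9 in mixed WT, 388.4 and 401.1 in pure cancer and 385.3 and 368.3 in mixed cancer cells. The cancer libraries lay within a narrow band above the WT libraries. The counting interval of A02, where the sum rests on 19 reads, was 149.9 to 388.9 CPM. It overlapped those of all 4 cancer libraries, whose lower ends were 287.6 to 368.4 CPM. Without Hspa1b the sums were 138.2 to 249.1 CPM in WT and 287.3 to 335.9 CPM in cancer cells and still did not overlap. These sums rest largely on Dnajb1 and Hsp90aa1, which also did not overlap on their own. In A03, for example, they were at 188.9 and 84.0 of the 335.9 CPM. The interval of A02, again 149.9 to 388.9 CPM, overlapped those of all 4 cancer libraries here too. As a share of the members' own reads, which does not depend on the scaling between libraries, the 7 genes held 1.72% to 3.97% in WT and 4.66% to 5.26% in cancer cells. Of the 5 tested members, 4 had a positive log2 fold change over both cultures, beside 52.4% of all tested genes, and 1 was called, beside 6.80% of all called higher, with a median of 1.00.

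Immediate-early genes respond within minutes to growth factors and stress. Of the 12 tested, 8 had a positive log2 fold change in cancer against WT cells over both cultures, beside 52.4% of all tested genes, with a median of 0.37, and 3 were called higher, beside 6.80% of all. In mixed cancer against mixed WT cells 0 of the 12 were called. The summed level over the 15 genes of the list was 616.1 to 1918.9 CPM in WT and 1417.1 to 2565.0 CPM in cancer cells, so the libraries overlapped, and A06 was the highest of the WT libraries as it was for Hspa1b. The genes called higher over both cultures were Ier3, Junb and Klf6, with log2 fold changes of 2.94, 1.45 and 1.78 (adjusted p = 8.51e-05, 0.00927 and 0.0387, edgeR). The cells also differed in kind. Of the 8 epithelial markers, 3 were called lower in cancer cells over both cultures (Cldn7, Krt20 and Krt8), beside 7.37% of all tested genes. The 6 tested enterocyte markers and the 5 tested secretory markers were all called lower in cancer cells, and the summed level of the 8 enterocyte markers in the table was 1542.8 to 1856.9 CPM in WT and 0 to 12.0 CPM in cancer cells, and that of the 7 secretory markers 1953.1 to 3679.8 and 8.81 to 26.2 CPM. The part of these differences in the chaperone results was not tested, and in bulk RNA a change in the number of cells of a type and a change in RNA per cell cannot be told apart.

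**Figure D2:**
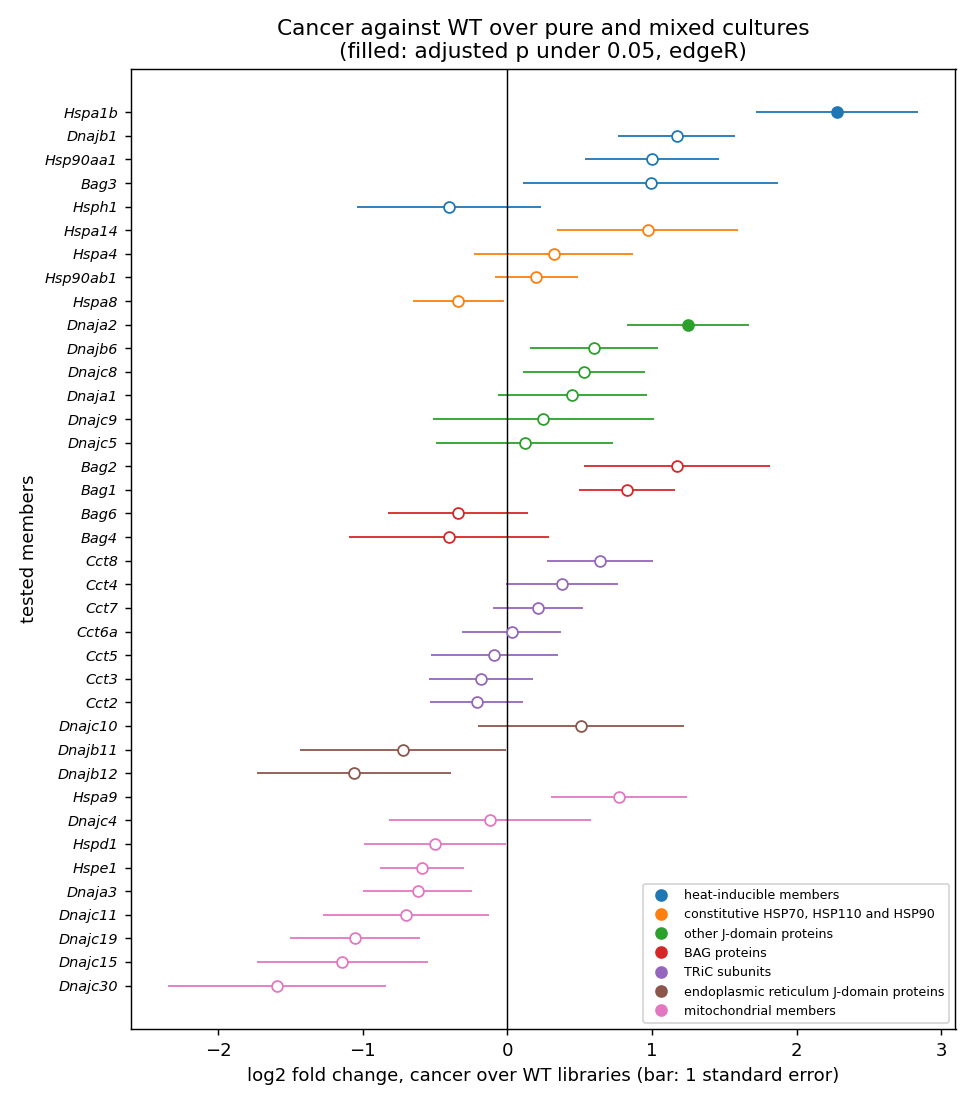
Log2 fold change of cancer over WT libraries over pure and mixed cultures (horizontal axis, bars 1 standard error) for the 38 tested members, ordered by role group. Filled points are Hspa1b and Dnaja2, the 2 members with an adjusted p under 0.05 in edgeR, and 8 of the 9 mitochondrial members lie left of 0.

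Among the constitutive HSP70, HSP110 and HSP90 genes, 4 of 7 were tested and 0 were called in any of the 6 comparisons. Hspa8, the constitutive cytosolic HSP70, was at 1833.1 and 2660.2 CPM in pure WT, 1088.0 and 2401.5 in mixed WT, 1191.4 and 1915.6 in pure cancer and 1142.3 and 2054.2 in mixed cancer cells. In every group the library from wells A05 to A08 was higher than the one from wells A01 to A04, and within each of these sets of wells pure WT cells had the highest level. The log2 fold change of cancer over WT was −0.34 (adjusted p = 0.575, edgeR), and with the set of wells as a block it was −0.33 (adjusted p = 0.453, edgeR). The summed level of the 7 genes shifted between the wells in the same way, from 2058.0 to 2960.7 CPM in A01 to A04 and from 3588.7 to 4574.1 CPM in A05 to A08. The labels do not say what the wells of a set share. Hsp90ab1, the constitutive cytosolic HSP90, ranged from 970.0 to 1824.5 CPM in WT and from 1249.1 to 1623.6 CPM in cancer cells (0.20, adjusted p = 0.734, edgeR). Hspa4, an HSP110 nucleotide exchange factor, was at 0 to 63.4 CPM in WT and 31.1 to 75.3 CPM in cancer cells, and Hspa14, an HSP70 of ribosomes, at 0 to 29.8 and 23.9 to 56.2 CPM (0.97, adjusted p = 0.375, edgeR). Of the windows at the 3′ end of Hspa8, 68.6% recurred in other annotated genes, and its counts are uncertain where the alignment reference held those copies.

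Ratios within a library take out its depth and scaling, but they also move with the level of the denominator. Hspa8 itself was higher in A05 to A08 than in A01 to A04 in every group. Within each set of wells it was highest in pure WT cells. There were 0.599 and 0.338 reads of Hspa1b per 100 reads of Hspa8 in pure WT, 0 and 1.32 in mixed WT, 4.41 and 5.94 in pure cancer and 5.76 and 3.03 in mixed cancer cells. All 4 cancer libraries were above the WT libraries, although the interval of A02, up to 4.54, reached into them. The interval of A06, 0.720 to 2.23, also overlapped those of A08, 1.55 to 5.35, and A03, 2.08 to 8.25. Hsp90aa1 per 100 reads of Hsp90ab1 was 2.34 to 4.05 in WT and 3.51 to 6.72 in cancer cells. These overlapped as A02, at 4.05 from 3 reads of Hsp90aa1, lay above A08, at 3.51 from 11 reads. Dnajb1 per 100 reads of Hspa8 was 1.79 to 10.8 in WT and 7.34 to 15.9 in cancer cells, again with A02 as the high WT value.

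**Figure D3:**
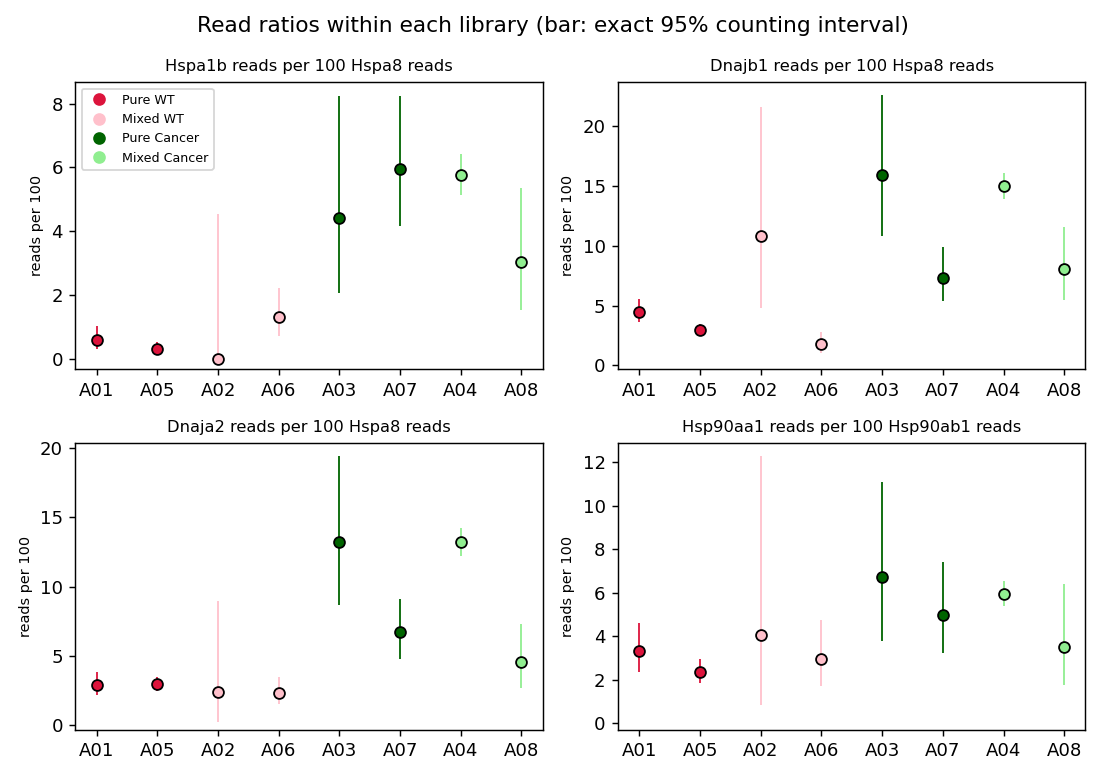
Reads of 3 members per 100 reads of Hspa8 and of Hsp90aa1 per 100 reads of Hsp90ab1 (vertical axes) in each library (horizontal axis), with exact 95% counting intervals. For Hspa1b and Dnaja2 the 4 cancer libraries lie above the 4 WT libraries, and the wide intervals of A02 come from its low depth.

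Dnaja2, a J-domain co-chaperone of Hspa8 in the cytosol (chr8:85537633-85555344, minus strand, GRCm38), was the other member called. It was at 54.0 and 78.7 CPM in pure WT, 26.2 and 56.6 in mixed WT, 157.5 and 128.7 in pure cancer and 150.3 and 93.4 in mixed cancer cells. The groups did not overlap over both cultures, with a log2 fold change of 1.25 and a standard error of 0.423 (adjusted p = 0.0493, edgeR). This call lay at the threshold, and it held under 4 of 16 alternatives, with adjusted p from 0.0272 to 0.249, and was lost without any 1 library other than A06. On the molecule barcode counts, which level off at high read numbers, the log2 fold change fell to 0.79 (adjusted p = 0.111, edgeR). Dnaja2 had 33 barcodes from 59 reads in A01 and 187 from 768 reads in A04. Per 100 reads of Hspa8, Dnaja2 had 2.36 to 2.96 reads in WT and 4.55 to 13.2 reads in cancer cells. This ratio also moves with the level of Hspa8.

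The other J-domain proteins, those placed in no other role group, comprised 21 genes, 6 of which were tested. All 6 had a positive log2 fold change over both cultures, beside 52.4% of all tested genes, with a median of 0.49, and 1 was called higher, Dnaja2, beside 6.80% of all. Dnajc8, which belongs to the spliceosome, was at 13.1 to 129.3 CPM in WT and 83.0 to 199.4 CPM in cancer cells (0.53, adjusted p = 0.503, edgeR). Dnajb6, which keeps polyglutamine proteins from aggregating, was at 39.9 to 77.0 CPM in WT and 51.9 to 98.8 CPM in cancer cells (0.60, adjusted p = 0.462, edgeR). Its profile over the 8 libraries was the one most like that of Hspa1b, with a Pearson correlation of log2 CPM of 0.85, as a description only, since the libraries share depth and cell kind. Dnajb1 was most like Hsp90aa1 (0.87), Hsph1 most like Dnajc15 (0.83) and Bag3 most like Hspa1b (0.59). Dnajc5, the cysteine string protein of secretory vesicles, had the smallest change of this group, 0.12 (adjusted p = 0.942, edgeR).

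Dnajc12, a J-domain protein that assists aromatic amino acid hydroxylases, did not reach the count minimum and is named because of its values. Its reads numbered 20 and 38 for pure WT, 1 and 4 for mixed WT, 0 and 0 in pure cancer and 9 and 0 in mixed cancer cells. Pooled, this was 17.5 CPM in WT and 1.64 CPM in cancer cells, a ratio of 10.7 (95% counting interval 5.27 to 24.4), and the 9 reads were all in A04. It was called lower in cancer cells once no filter was applied (log2 fold change −5.02, adjusted p = 0.0237, edgeR).

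Of the 5 BAG genes, 4 were tested and 0 were called. Bag1, which joins HSP70 to the proteasome, was at 207.7 and 228.8 CPM in pure WT, 104.9 and 135.9 in mixed WT, 283.4 and 290.3 in pure cancer and 330.5 and 264.6 in mixed cancer cells. The 4 groups were ordered with mixed WT lowest, then pure WT, then both cancer groups, which overlapped each other. The log2 fold change of cancer over WT was 0.83 with a standard error of 0.332 (adjusted p = 0.107, edgeR). Bag2, an inhibitor of the ubiquitin ligase CHIP, was at 11.3 to 23.8 CPM in WT and 18.0 to 57.7 CPM in cancer cells (1.17, adjusted p = 0.281, edgeR). Bag6, which hands membrane proteins on, and Bag4 had negative values of −0.34 and −0.40 with wide overlap.

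Over all 38 tested members, 5 did not overlap between the 4 cancer and 4 WT libraries with cancer higher (Hspa1b, Dnaja2, Dnajb1, Hsp90aa1 and Bag1), beside 8.24% of all tested genes, which makes 13.2% of the members. With cancer lower it was 1 member, Dnaja3, beside 8.11% of all. On barcode counts, where ties and small numbers are more frequent, only Hspa1b and Dnajb1 of the 5 stayed apart and Dnaja3 did not.

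Of the 8 TRiC genes, 7 were tested and 0 were called in any of the 6 comparisons. Their median log2 fold change of cancer over WT was 0.03. Their summed level was 1310.8 to 2048.0 CPM in WT and 1747.7 to 2043.8 CPM in cancer cells. Cct7 ranged from 314.6 to 659.3 CPM in WT and from 514.3 to 689.7 CPM in cancer cells, and Cct6a from 170.4 to 253.5 and from 150.4 to 257.7 CPM. Cct2 had the lowest value of the subunits (−0.21, adjusted p = 0.751, edgeR). Cct8 had the highest (0.64, adjusted p = 0.301, edgeR), with 105.2 and 98.9 CPM in pure WT against 196.6 and 188.0 in mixed WT, 335.9 and 152.6 in pure cancer and 241.3 and 145.2 in mixed cancer cells, so that pure WT cells lay below all other libraries.

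None of the mitochondrial members was called. Of 9 genes, all tested, 8 had a negative log2 fold change over both cultures, beside 47.6% of all tested genes, and the median was −0.62 against 0.04 over all tested genes. Hspe1, the HSP10 lid of the mitochondrial chaperonin, was at 1356.3 and 1347.3 CPM in pure WT, 1468.1 and 908.5 in mixed WT, 1128.4 and 745.3 in pure cancer and 723.4 and 788.5 in mixed cancer cells. Only A06 and A03 crossed between the cell kinds (−0.59, standard error 0.292, adjusted p = 0.219, edgeR). Hspd1, the HSP60 ring that Hspe1 closes, is transcribed from the same region in the opposite direction and was at 39.3 to 101.2 CPM in WT and 29.9 to 88.4 CPM in cancer cells. Dnaja3, the J-domain partner of mitochondrial HSP70, was at 131.1 to 170.3 CPM in WT and 51.9 to 122.7 CPM in cancer cells, without overlap (−0.62, adjusted p = 0.343, edgeR). Dnajc19, of the import motor, was at 97.4 to 249.1 CPM in WT and 36.3 to 126.0 CPM in cancer cells (−1.05, adjusted p = 0.139, edgeR). Dnajc30 had the smallest value of all tested members, −1.59 (adjusted p = 0.193, edgeR). Hspa9, the mitochondrial HSP70 itself, was the only one of the 9 with a positive value, 0.77 (adjusted p = 0.339, edgeR), at 13.1 to 63.5 CPM in WT and 57.1 to 95.8 CPM in cancer cells. Of the windows at the 3′ ends, 53.2% in Hspe1 and 29.8% in Hspd1 recurred in other annotated genes.

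Of the 9 J-domain genes of the endoplasmic reticulum, 3 were tested and 0 were called in any comparison. Dnajb11, a co-chaperone of the luminal HSP70, was at 20.4 to 52.4 CPM in WT and 0 to 39.3 CPM in cancer cells, Dnajb12 at 18.1 to 78.6 and 8.98 to 62.2 CPM, and Dnajc10, a disulfide reductase, at 0 to 22.7 and 0 to 32.9 CPM. Besides Hspb1, 4 genes had an Hspb symbol, a grouping by name and not by function. None of them reached the count minimum, with a summed level of 0 to 20.2 CPM in WT and 15.6 to 36.6 CPM in cancer cells.

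**Figure D4:**
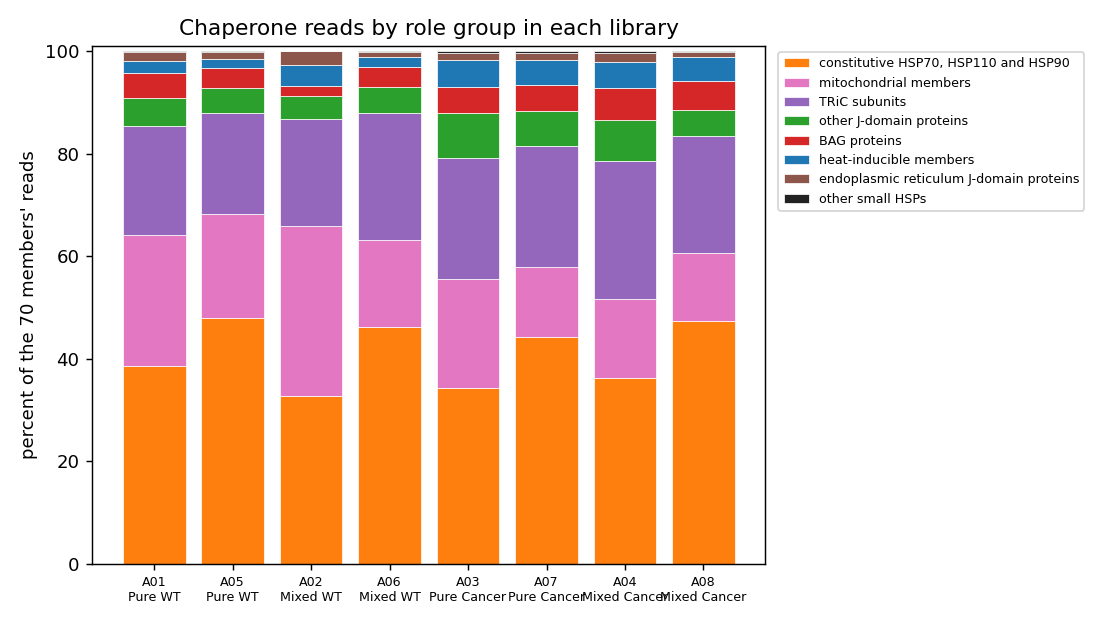
Share of the reads of the 70 members (vertical axis, percent) taken by each role group in each library (horizontal axis). The heat-inducible members took 1.72% to 3.97% in WT and 4.66% to 5.26% in cancer libraries, and the constitutive HSP70, HSP110 and HSP90 genes 32.8% to 48.0% over all libraries.

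Mixing with the other cell kind called none of these genes. In mixed against pure WT cells 0 of the 38 tested members were called, beside 0.741% of all tested genes, and 1 was lower at an unadjusted p under 0.05, beside 4.67% of all. This was Dnajc9, a histone chaperone of dividing cells, at 28.4 and 46.7 CPM in pure WT and 0 and 9.06 CPM in mixed WT cells (log2 fold change −2.37, standard error 1.13, adjusted p = 0.501, edgeR). Of the 14 proliferation genes, all tested, 0 were called in this comparison, only 2 had a value above 0 and the median was −1.01, and their summed level was 1829.5 and 1903.1 CPM in pure WT and 1507.5 and 663.8 CPM in mixed WT cells. The mixed WT library A02 also stood apart in its share of reads from mitochondrial genes, 2.36% against 0.307% to 1.13% in the others. The part of either in the levels of Dnajc9 was not tested. The median over the members was −0.21, against −0.10 over all tested genes, and 25 of the 38 were lower in mixed cells, beside 54.9% of all tested genes. The heat-inducible members had a median of 0.26 in this comparison, with Hspa1b at 1.22 (standard error 0.850, adjusted p = 0.716, edgeR) from 0 CPM in A02 and 31.7 in A06, which lay on either side of pure WT cells. Without overlap, 2 members were higher in mixed WT cells (Cct8 and Dnajb6) beside 15.0% of all tested genes, and 9 were lower beside 28.8%. DESeq2 called 0 members in this comparison as well.

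In mixed against pure cancer cells 0 members were called, beside 0% of all tested genes, and 1 member was higher at an unadjusted p under 0.05, beside 1.03% of all. This was Dnajc30, a mitochondrial J-domain protein linked to complex I, at 0 and 5.99 CPM in pure cancer and 19.4 and 31.1 CPM in mixed cancer cells (log2 fold change 2.63, standard error 1.20, adjusted p = 1.00, edgeR). The median of the members was 0.04, against 0.03 over all tested genes. For the difference between the changes in cancer and WT cells 0 members were called, beside 0.0760% of all tested genes, 1 had an unadjusted p under 0.05 in the direction of cancer, beside 3.93% of all, and DESeq2 called 0. The largest difference among the members was again Dnajc30, at 3.18 with a standard error of 1.50 (adjusted p = 0.677, edgeR).

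**Figure D5:**
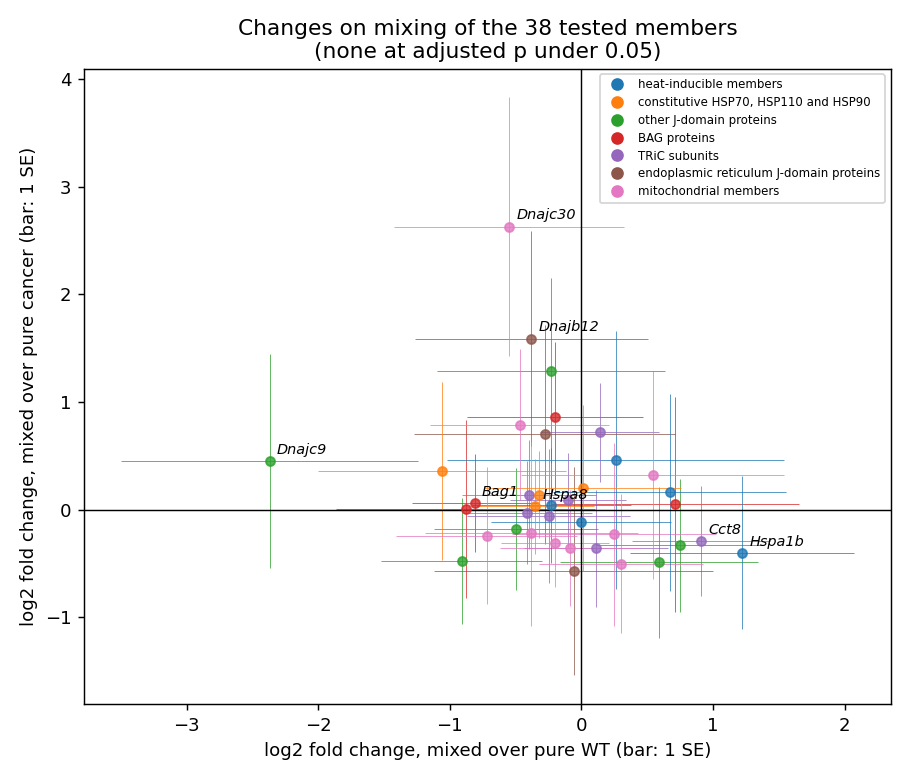
Log2 fold change of mixed over pure cells in WT (horizontal axis) and in cancer (vertical axis) for the 38 tested members, with bars of 1 standard error and colors by role group. Most points lie within 1 of 0 on both axes, Dnajc9 and Dnajc30 lie farthest out, and no member had an adjusted p under 0.05 in edgeR.

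Partners of these chaperones outside the symbol rule were followed as lists. Of 30 HSF factors and co-chaperones of HSP70 and HSP90, 18 were tested, and 13 of these had a positive log2 fold change in cancer against WT cells over both cultures, beside 52.4% of all tested genes, with a median of 0.29. Of the 8 tested genes for prefoldin and further TRiC proteins, 7 had a positive value, beside 52.4% of all tested genes, and 1 was called higher, beside 6.80% of all. This was Vbp1, a subunit of prefoldin, which passes actin and tubulin to TRiC (4.69, standard error 1.38, adjusted p = 0.0228, edgeR). Its reads numbered 8 and 16 for pure WT and 0 and 0 for mixed WT cells. In pure cancer cells they were 6 and 9, and in mixed cancer cells 132 and 2. The mixed WT arm thus held no reads, which leaves the size of the change uncertain. Vbp1 was not called in the pure or in the mixed cultures alone. Of the mitochondrial chaperones and proteases 8 were tested and of the endoplasmic reticulum chaperones 14, and 0 of either were called in any of the 6 comparisons. The endoplasmic reticulum list had a median of 0.69 over both cultures with 12 of 14 positive, and the mitochondrial list −0.32 with 3 of 8 positive, beside 52.4% of all tested genes.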

How the data were processed

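Bulk RNA of sorted cells was sequenced by CEL-Seq in 8 libraries, 2 per group. Read 2 was aligned by the authors to the mm10 RefSeq transcriptome with BWA, reads that matched several places equally well were discarded, and featureCounts assigned reads to genes. The deposited read counts per gene, without normalization, were used. The authors also deposited barcode counts, the number of different molecule barcodes per gene, and estimated counts of transcripts that the authors computed from the barcode counts, rounded here. Barcode counts level off in deep libraries, where Hspa8 had 255 in A05 and 256 in A04, so they compress differences of genes with many reads. The authors' own DESeq2 comparison of the WT groups was not used. It holds, per the file header, fold changes on the log2 scale and p-values.

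The 4 groups came from the labels, and no pairs were formed in the main test, as no label ties wells of different groups. After filterByExpr (minimum count 10), counts were scaled with TMM factors and tested with edgeR 4.0.16 (quasi-likelihood, all 8 libraries in 1 fit, R 4.3.3). They were called at a Benjamini-Hochberg adjusted p under 0.05 over 5264 genes. Standard errors were derived from the size of the log2 fold change and the F statistic. Alternatives were barcode and transcript counts, other size factors, other count filters, fits of the compared groups alone, fits without each library in turn, and DESeq2 1.42.0. The code was tested on simulated data. Between the 2 libraries of a group the chi-square per degree of freedom was 4.44 to 13.5 on reads. Reads include amplification copies, which raise this value, so it cannot show that the libraries differed by more than the sampling of molecules.

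Gene positions came from GENCODE vM21 (GRCm38) and promoters from RefSeq (GRCm38.p6). Intervals are exact at 95%. The members and lists were chosen with earlier results of these data known. Named were all called members, all heat-inducible ones and, per role group, the 3 highest and those with the largest and smallest change of cancer over WT. For each tested heat-inducible member the one with the most similar profile was also named. Hspd1, Dnajc9, Dnajc12 and the members gained under alternatives were named after their values were seen. Alternatives added after seeing the data counted members without overlap and took the wells in plate order as a block. Some items of the genotype and of the co-chaperone list are not reported here.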

Additional observations from a re-analysis of the deposited data

Results flagged for a closer look

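Dnajc30 was the only member with an opposite order of its libraries on mixing in WT and cancer cells. Of all tested genes, 28.8% were lower in mixed than in pure WT cells without overlap. In mixed against pure cancer cells 13.8% were higher without overlap. The share of all tested genes with both orders was not counted, so 1 member among 38 is not read as unusual. Both mixed WT libraries, at 13.1 and 27.2 CPM, lay below both pure WT libraries, at 37.5 and 30.9 CPM, while both mixed cancer libraries, at 19.4 and 31.1 CPM, lay above both pure cancer libraries, at 0 and 5.99 CPM. The change in cancer minus that in WT cells was 3.18 on the log2 scale, with an unadjusted p of 0.0451 and an adjusted p of 0.677 (edgeR), so the difference did not pass the test. The mixed WT value in A02 rests on 1 read and the pure cancer values on 0 and 2 reads.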

How the results depend on the processing

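The counts of 0 called members in both comparisons on mixing, in the difference between them and in mixed cancer against mixed WT cells were 0 under every alternative run. In pure cancer against pure WT cells, where 1 member was called, the count was 2 on barcode counts (with Dnajc30 lower), 3 on transcript counts (with Cct8 higher and Dnajc30 lower), 0 at a minimum count of 50, where Hspa1b is no longer tested, and 2 with only the libraries compared (with Dnajc12, which the filter on those libraries keeps). With each library left out it was 0 to 2, 0 without A01, A05 or A07 and 2 without A02 (with Dnajc30 lower). In cancer against WT over both, where 2 were called, it was 0 at a minimum count of 50 and 1, Hspa1b, with DESeq2, and 1 to 3 with each library left out. It was 1 without A01, A04, A05, A07 or A08. Dnaja2 was replaced by Dnajb1 and Dnajc12 without A02 and by Dnajc15 and Dnajc19 without A03, and Dnajc19 was added without A06. On barcode and transcript counts Dnajb1 took the place of Dnaja2, and with no filter Dnajc12 did. The cause of these changes, other than a changed filter, was not tested. The 5 members above WT without overlap were 2 on barcode counts and 5 to 8 with a library left out, 8 without A08. The 1 below was 0 on barcode counts and 1 to 4 with a library left out, 4 without A03 and 3 without A06. The labels give no number shared between groups, but the wells run through the 4 groups once in A01 to A04 and once in A05 to A08. With these sets as a replicate block, chosen after seeing the data, 4 members were called in cancer against WT over both, Hspa1b, Dnaja2 and Dnajb1 higher and Dnajc19 lower, the count was 1 in pure cancer against pure WT, and the 4 other comparisons had 0. Over all tested genes the block moved the calls from 39 to 119 in mixed against pure WT and from 4 to 30 for the difference between the changes on mixing. Within-group deviations correlated between groups at 0.04 to 0.21 over the 5264 genes and at −0.26 to 0.42 over the 38 tested members. Counting noise in shallow libraries weakens such correlations, so they cannot decide whether the wells pair the libraries. The main test has no block because no label ties the wells. Depth limits these results most in A02, where 3 reads are 41.0 CPM.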
